A study of Mus musculus with 18 samples.

Results

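The subunits of the mitochondrial respiratory chain and of ATP synthase that are encoded in the nucleus were followed in mouse brain 7 days after a photothrombotic stroke, in wild-type and Trem2-knockout animals. Members were chosen by symbol (names starting with Nduf and a letter a, b, c, s or v with a digit, with Cox4 to Cox8, with Uqcr or with Atp5, and the symbols Sdha to Sdhd) and by abundance (at least 10 counts in at least 3 libraries). Of 18922 genes, 87 had such a name and 83 also passed the count rule. The remaining 4, Cox7b2, Cox8b, Ndufb4b and Ndufs6b, were too sparse. All 83 were among the 15329 genes tested. Complex I gave 37 members, complex II 4, complex III 8, complex IV 17 and ATP synthase 17. Ndufa4 and its relative Ndufa4l2 carry complex I names and are counted here with complex IV, where the Ndufa4 protein is found. Ndufb4 and Ndufb4c are near-identical copies between which reads may have been split, so their values are uncertain. Other members also have processed pseudogenes elsewhere in the genome, and the sources used here do not give how reads with several matches were treated.

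The respiratory chain passes electrons from NADH (complex I) and succinate (complex II) through complex III to oxygen at complex IV, pumping protons that ATP synthase then uses to make ATP. Neurons rely heavily on it, while activated microglia and macrophages draw more on glycolysis. Each complex except complex II also holds subunits encoded by mitochondrial DNA, which were not analysed here, and many accessory subunits exist as tissue isoforms.

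All animals were male C57Bl6 mice of 8 to 10 weeks given 50 mg/kg Rose Bengal, a dye that clots vessels when lit, and a lesion of 3 mm lit at 525 nm with 125 mW. The 6 groups were contralateral, peri-infarct and infarct core tissue of wild-type mice and the same regions of Trem2-knockout mice, dissected with the aid of the stain TTC, with 3 libraries of polyadenylated RNA each. Every group, the contralateral one included, thus came from injured mice. Trem2 is a receptor of microglia and macrophages, and the comparisons ask how expression differs between regions and with loss of that receptor. The labels number the libraries within a group but do not say whether a number stands for 1 animal, so a p-value here reflects the spread between samples alone, and part of that spread may be technical.

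Total counts ranged from 16993978 to 17691801 in 17 libraries and reached 18713770 in wild-type core replicate 3. Trem2 measured 25.5 ± 4.27 CPM (normalized counts scaled to a fixed library total; SD, n = 3) in wild-type contralateral tissue and 0.643 ± 0.285 in the knockout, and was also lower in the knockout at the other regions. Wild-type core replicate 3 stood apart. Its 10 most abundant genes took 15.5% of counts against 3.27 to 5.38% elsewhere, its 8 pan-neuronal markers summed to 64.8 CPM against 4690 and 5211 in the other wild-type core libraries, and its 12 microglia and macrophage markers summed to 24124 CPM against 5744 and 6813. The neuronal markers Slc17a6, Neurod6, Slc32a1 and Vip had 0 counts in it and in no other library. The 83 members took 0.828% of its counts and 0.908 to 1.24% elsewhere. Its normalization factor was 0.824, against 0.967 to 1.07 elsewhere. In CPM, which is scaled by that factor, the order in the wild-type core was the reverse. The members' mean centred log2 CPM was 0.10 in this library and -0.07 and -0.16 in replicates 1 and 2. Most results that rest on this library, or on the spread that it adds for all groups, are given with and without it. Values not marked as without it use all libraries.

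In wild-type contralateral tissue the members differed widely in abundance. Per transcript length (TPM), the most abundant were Cox4i1, the ubiquitous form of complex IV subunit 4 (2739 ± 158, SD, n = 3), Atp5md, a small membrane subunit of ATP synthase (2596 ± 161), and Cox6c of complex IV (2076 ± 149). The 3 least abundant were tissue or stress isoforms, namely Ndufa4l2 (4.32 ± 0.596), Cox4i2 (5.33 ± 1.05) and Cox6b2 (12.05 ± 4.63). The median member stood at 448 TPM. Within a group, the coefficient of variation of a member in CPM had a median of 4.45% in wild-type contralateral and 5.55% in wild-type peri-infarct libraries, and of 6.47%, 10.8% and 4.19% in knockout contralateral, peri-infarct and core libraries. In the wild-type core it was 14.2%, and 23 of 83 members exceeded 20% there. Knockout peri-infarct replicate 1 was the lowest of its group for the members together (0.970% of counts, against 1.06% and 1.14%).

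**Figure D1:**
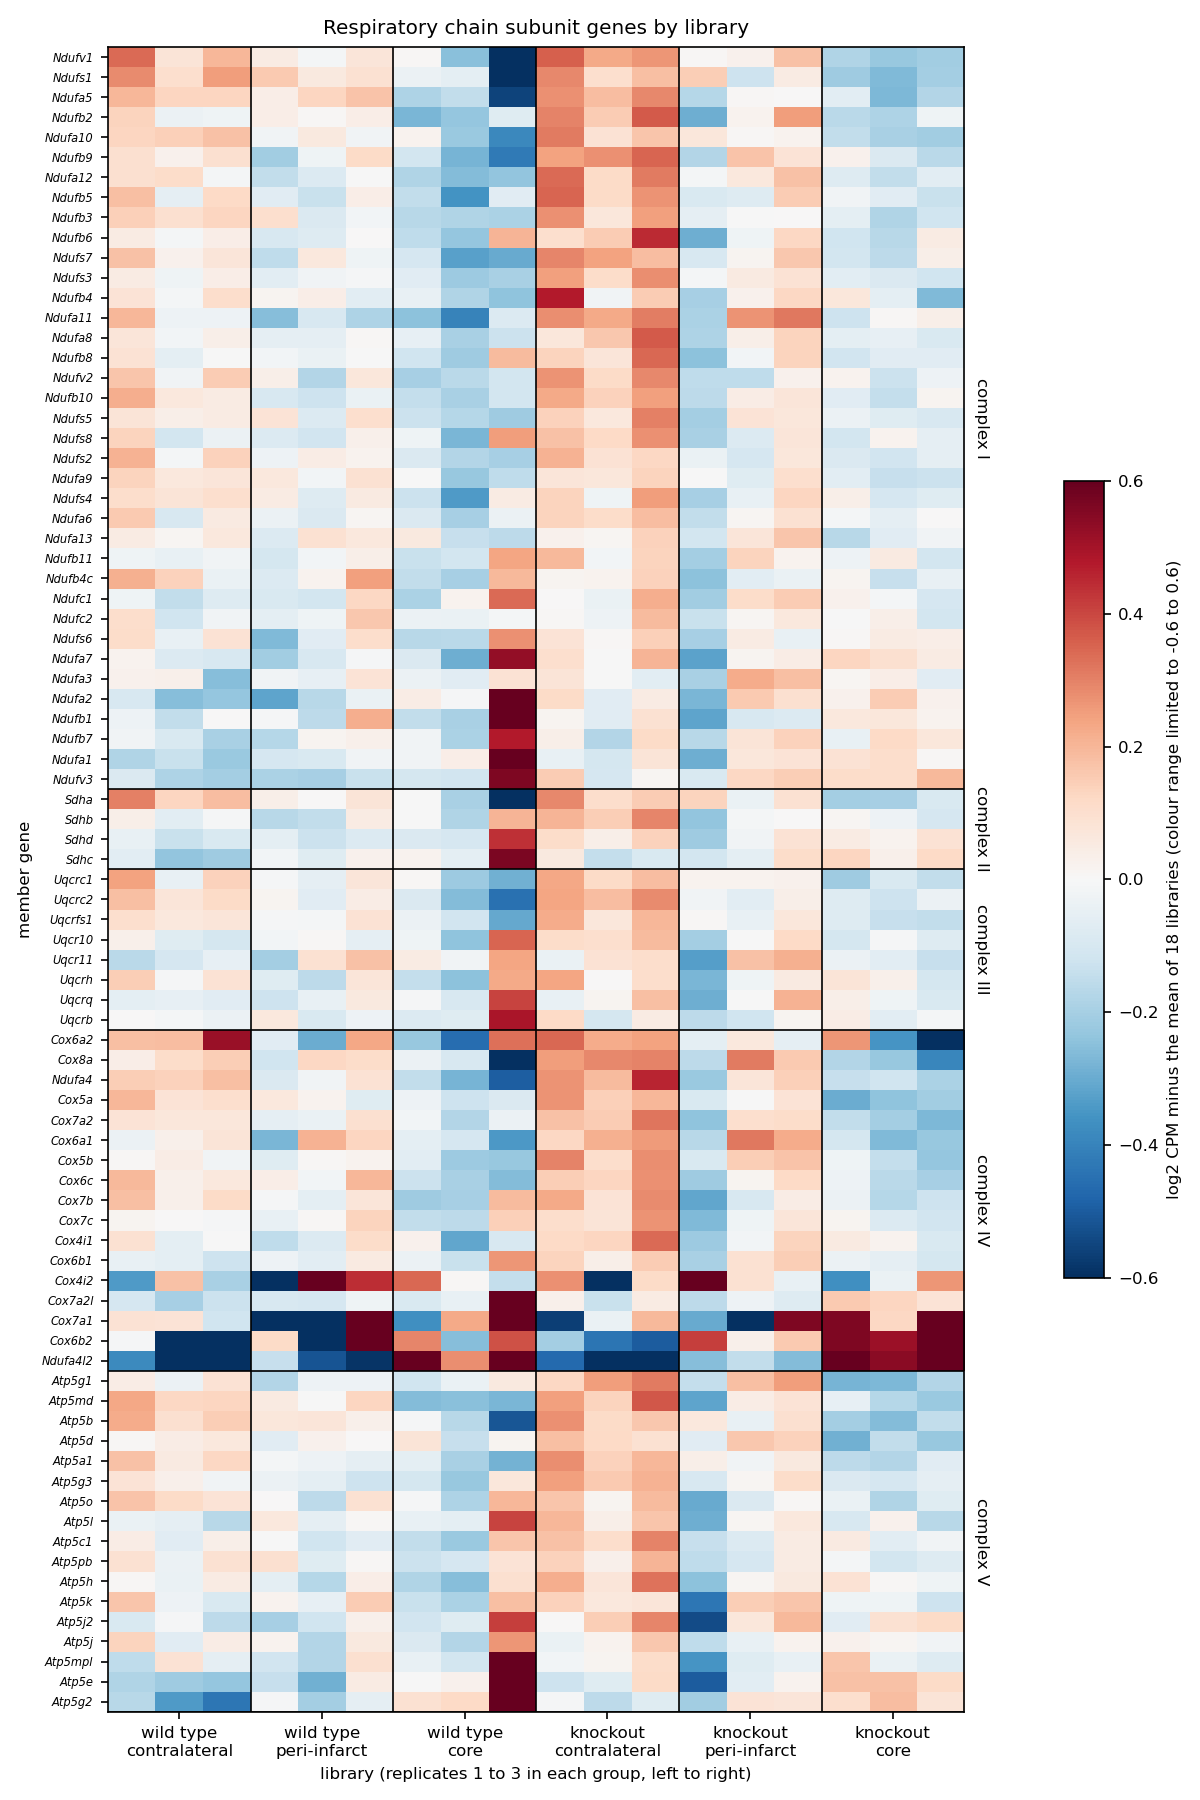
Colour gives the log2 CPM of each of the 83 members (rows, by complex) in each of the 18 libraries (columns), minus that member's mean over all 18, with the colour range limited to -0.6 to 0.6. Ndufv1, Ndufs1 and Sdha are lowest in wild-type core replicate 3 while Ndufa2, Sdhc, Atp5e and Atp5g2 are highest there, and knockout contralateral libraries lie mostly above the mean.

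In the wild-type infarct core, 20 of 83 members fell and 6 rose against the contralateral side (edgeR's quasi-likelihood test, adjusted p under 0.05 over all genes tested). Of all genes tested, 11.5% were called lower and 29.1% higher. The median log2 fold change of the members was -0.11, against -0.03 over all genes tested, and 56 members lay below 0. No called fall went beyond -0.55. In 33 members every core library was below every contralateral one and in 8 above, against 25.8% and 30.9% of all genes. The falls included 5 of the 7 core subunits of complex I, Sdha, Uqcrc1, Uqcrc2, Ndufa4 and Cox5a. The rises were Ndufa4l2, Atp5g2, Atp5e, Ndufa2, Ndufa1 and Sdhc. Once wild-type core replicate 3 was left out, 25 members fell and 2 rose, where 16.6% of all genes fell and 23.6% rose, and the 2 rises were Ndufa4l2 and Atp5g2. The members' median was then -0.17 with 69 below 0. Leaving out wild-type contralateral replicate 1 or 3 instead gave 10 and 13 calls in all. With only the 6 compared libraries in the fit 0 members passed, and on the deposited TPM scale 67 fell and 2 rose. On that scale the median of all genes was also lower in the core (see the closing section), and the share of all genes called is not given here. In bulk tissue, fewer cells of a type and less RNA per cell cannot be told apart. Beside these falls, the summed pan-neuronal markers ranged from 7238 to 8683 CPM in contralateral libraries and from 64.8 to 5211 in the core, with 0 of 8 called by edgeR (8 lower without that library). Microglia and macrophage markers ranged from 727 to 1014 and from 5744 to 24124, and 12 of 12 rose. The 8 fibroblast markers, all of which rose (7 without that library), went from 162 to 237 CPM in contralateral libraries to 2334 to 8531 in the core. The part of these cell types in the members' values was not tested.

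Complex I, the NADH dehydrogenase, carried 12 of the 20 wild-type falls and 2 of the rises. Its 7 conserved core subunits, which bind the flavin and the iron-sulfur clusters, had a median of -0.27 and 5 of them fell, against a median of -0.18 over the 37 members. By module, the NADH-oxidizing N module had 4 falls among 8 members, the ubiquinone-reducing Q module 4 among 8, and the membrane arm 4 among 21. Without wild-type core replicate 3 these were 5, 4 and 6. The knockout core had 1, 3 and 6 falls, with medians of -0.22, -0.23 and -0.27, or 4, 6 and 12 falls without that library. By these numbers the order of the modules differed between the genotypes, but the knockout medians lay close together and no test compared modules. Ndufv1, which binds the flavin that takes electrons from NADH, measured 179, 149 and 162 CPM in wild-type contralateral libraries and 142, 119 and 74.4 in the core. Each core library was below each contralateral one, and the lowest was the library that stood apart. Ndufv1 fell by 0.55 ± 0.17 (log2 ± SE, edgeR adjusted p = 0.0204), and without that library it fell by 0.33 ± 0.09 (adjusted p = 0.00889). Ndufa5, an accessory subunit of the Q module, had the smallest p of the complex I falls. It measured 62.6, 59.6 and 59.6 CPM on the contralateral side and 47.9, 49.2 and 37.1 in the core, with no overlap. Its fall was 0.44 ± 0.10 (adjusted p = 0.00432), or 0.33 ± 0.08 without the library that stood apart (adjusted p = 0.00353). Ndufs1, which holds several iron-sulfur clusters, fell by 0.47 ± 0.16 with all libraries (adjusted p = 0.0305). Without the library that stood apart, the largest fall of any N-module member, Ndufs1 included, was 0.33. The 2 rises in complex I rested on wild-type core replicate 3, since Ndufa1 went from 0.48 ± 0.16 (adjusted p = 0.0333) to 0.18 ± 0.10 (0.163) without it and Ndufa2 from 0.52 ± 0.18 (0.0336) to 0.21 ± 0.12 (0.174). On the TPM scale, where the median of all genes was also lower in the core, Ndufa1 measured -0.01.

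The 4 genes of succinate dehydrogenase, the enzyme that complex II shares with the tricarboxylic acid cycle, did not move together in the wild-type core. Sdha, the flavoprotein that oxidizes succinate, measured 514, 455 and 474 CPM in contralateral libraries and 416, 364 and 244 in the core, without overlap. It fell by 0.50 ± 0.16 (edgeR adjusted p = 0.0267), and by 0.31 ± 0.09 without the library that stood apart (adjusted p = 0.0101). Sdhc, a membrane anchor, measured 85.9, 76.0 and 77.3 CPM on the contralateral side and 90.8, 86.1 and 133 in the core. Every core library was higher, by a narrow margin except for replicate 3. Its rise of 0.37 ± 0.14 (adjusted p = 0.0419) became 0.14 ± 0.08 without that library (adjusted p = 0.180), and on the TPM scale the difference was -0.06. Sdhb, the iron-sulfur subunit, and Sdhd, the other anchor, overlapped between regions (0.03 ± 0.11 and 0.20 ± 0.12, adjusted p = 0.840 and 0.200), and on the TPM scale stood at -0.39 and -0.23. On that scale the median of all genes was also lower in the core.

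In complex III, the cytochrome bc1 complex, 3 of 8 members fell in the wild-type core. Uqcrc2, a core protein of the complex, measured 214, 199 and 204 CPM in contralateral libraries and 177, 158 and 138 in the core, with no overlap. It fell by 0.38 ± 0.10 (edgeR adjusted p = 0.00828), and by 0.30 ± 0.07 without the library that stood apart (0.00371). The Rieske iron-sulfur protein Uqcrfs1 (-0.22 ± 0.08) and the core protein Uqcrc1 (-0.28 ± 0.10) fell less and missed the threshold without it (adjusted p = 0.0744 and 0.0592). The small subunit Uqcr11, the member of complex III above 0 with the smallest p, measured 0.20 with an adjusted p = 0.231.

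Complex IV, cytochrome c oxidase, had 3 falls and 1 rise among 17 members in the wild-type core. Ndufa4 measured 184, 183 and 188 CPM in contralateral libraries and 149.7, 137 and 118 in the core, where replicate 3 was the lowest. With all libraries Ndufa4 fell by 0.46 ± 0.12 (edgeR adjusted p = 0.00864). Its relative Ndufa4l2, known as a gene induced by low oxygen, was the single rise. It measured 1.53, 1.17 and 1.29 CPM on the contralateral side and 3.25, 2.41 and 15.8 in the core, where replicate 3 was far above the rest. The rise was 2.42 ± 0.53 (adjusted p = 0.00316) and still 1.08 ± 0.23 without that library (adjusted p = 0.00151). Cox5a, a nuclear subunit on the matrix side, measured 119.7, 110.4 and 112 CPM on the contralateral side and 102, 95.8 and 98.2 in the core. It fell by 0.21 ± 0.08 (adjusted p = 0.0425), and by 0.21 ± 0.07 without replicate 3 (0.0257).

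ATP synthase had 2 rises and 1 fall among 17 members in the wild-type core, and 1 rise and 4 falls without replicate 3. Atp5md measured 114, 106 and 106 CPM on the contralateral side and 81.2, 81.5 and 80.3 in the core, so here the library that stood apart sat with the others. Atp5md fell by 0.42 ± 0.10 (edgeR adjusted p = 0.00583). Atp5a1 and Atp5b, the alpha and beta subunits of the catalytic head, were at -0.30 and -0.37 with adjusted p = 0.0607 and 0.0596, and both fell without the library that stood apart (-0.25 and -0.24, adjusted p = 0.0104 and 0.0201). Atp5e, the smallest subunit of the head, rose by 0.70 ± 0.24 (0.0344) but stood at 0.21 ± 0.13 without it (adjusted p = 0.210).

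In the knockout infarct core, 22 of 83 members fell and 1 rose, where 3.31% of all genes tested were called lower and 19.7% higher by edgeR. The members' median was -0.22 against -0.01 over all genes tested, and 70 members lay below 0. In 51 members every core library was below every contralateral one, which held for 31.5% of all genes, and in 5 above, against 33.6%. Without wild-type core replicate 3, which belongs to neither group but adds to the shared spread, 47 fell and 2 rose, where 27.8% of all genes fell and 29.6% rose. With only the 6 knockout libraries compared, 45 members passed, and leaving out knockout contralateral replicate 1 or 3 or knockout core replicate 1, 2 or 3 gave 11, 10, 14, 11 and 13 calls. The shares of all genes called in those fits are not given here. Of the 8 pan-neuronal markers 0 passed by edgeR with all libraries and 8 fell without wild-type core replicate 3, and their sum ranged from 6818 to 7034 CPM in contralateral libraries and from 3614 to 3622 in the core. All 12 microglia and macrophage markers rose, with sums of 520 to 715 and 4822 to 7407, and so did all 8 fibroblast markers, with sums of 124 to 185 and 2571 to 4699. The part of these cell types in the members' values was not tested.

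Falls in the knockout core were spread over the complexes, with 10 of 37 in complex I, 0 of 4 in complex II, 3 of 8 in complex III, 5 of 17 in complex IV and 4 of 17 in ATP synthase. Without the library that stood apart these became 22, 2, 4, 9 and 10. Cox5a had the smallest p of all members. It measured 126, 115 and 119.8 CPM in knockout contralateral libraries and 84.9, 88.3 and 90.3 in the core, a wide gap with tight groups. Cox5a fell by 0.45 ± 0.08 (edgeR adjusted p = 0.000728, or 1.63e-05 without wild-type core replicate 3). In complex I, Ndufa12, an accessory subunit of the N module, had the smallest p. Its libraries measured 96.7, 82.6 and 94.7 CPM on the contralateral side and 72.4, 69.0 and 73.2 in the core, without overlap, and it fell by 0.35 ± 0.08 (adjusted p = 0.00585). Uqcrfs1 led complex III with 116, 104 and 114 CPM against 94.0, 90.2 and 89.4 in the core, a fall of 0.28 ± 0.08 (adjusted p = 0.0218). Ndufv3, a subunit of the N module, had the smallest p of the complex I members above 0, at 0.11 with an adjusted p = 0.578.

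No succinate dehydrogenase gene passed edgeR's test in the knockout core with all libraries, and 2 of the 4, Sdha and Sdhb, had an unadjusted p under 0.05. Sdha measured 509, 448 and 464 CPM on the contralateral side and 362, 364 and 391 in the core (-0.35 ± 0.16, adjusted p = 0.139). Sdhb measured 116, 112 and 123 CPM and 102, 98.8 and 93.9 (-0.25 ± 0.11, adjusted p = 0.0962). Both pairs of groups stood apart without overlap, and both genes fell without wild-type core replicate 3 (adjusted p = 0.00105 and 0.0134). Sdhc and Sdhd overlapped, at 0.15 ± 0.14 and -0.04 ± 0.12 (adjusted p = 0.429 and 0.807), and stayed uncalled without that library.

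The single rise in the knockout core was Cox6b2, a form of complex IV subunit 6b known from testis. It measured 1.73, 1.47 and 1.40 CPM in contralateral libraries and 2.93, 2.84 and 3.38 in the core. Those groups were well separated but rest on few counts (17 to 64 per library over all 18). Cox6b2 rose by 0.99 ± 0.32 (edgeR adjusted p = 0.0387). Ndufa4l2 measured 1.44, 1.13 and 1.07 CPM on the contralateral side and 3.10, 2.90 and 3.22 in the core, again without overlap. Its difference of 1.34 ± 0.53 missed the threshold (adjusted p = 0.0854) and passed at 1.33 ± 0.21 without wild-type core replicate 3 (adjusted p = 6.72e-05).

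**Figure D2:**
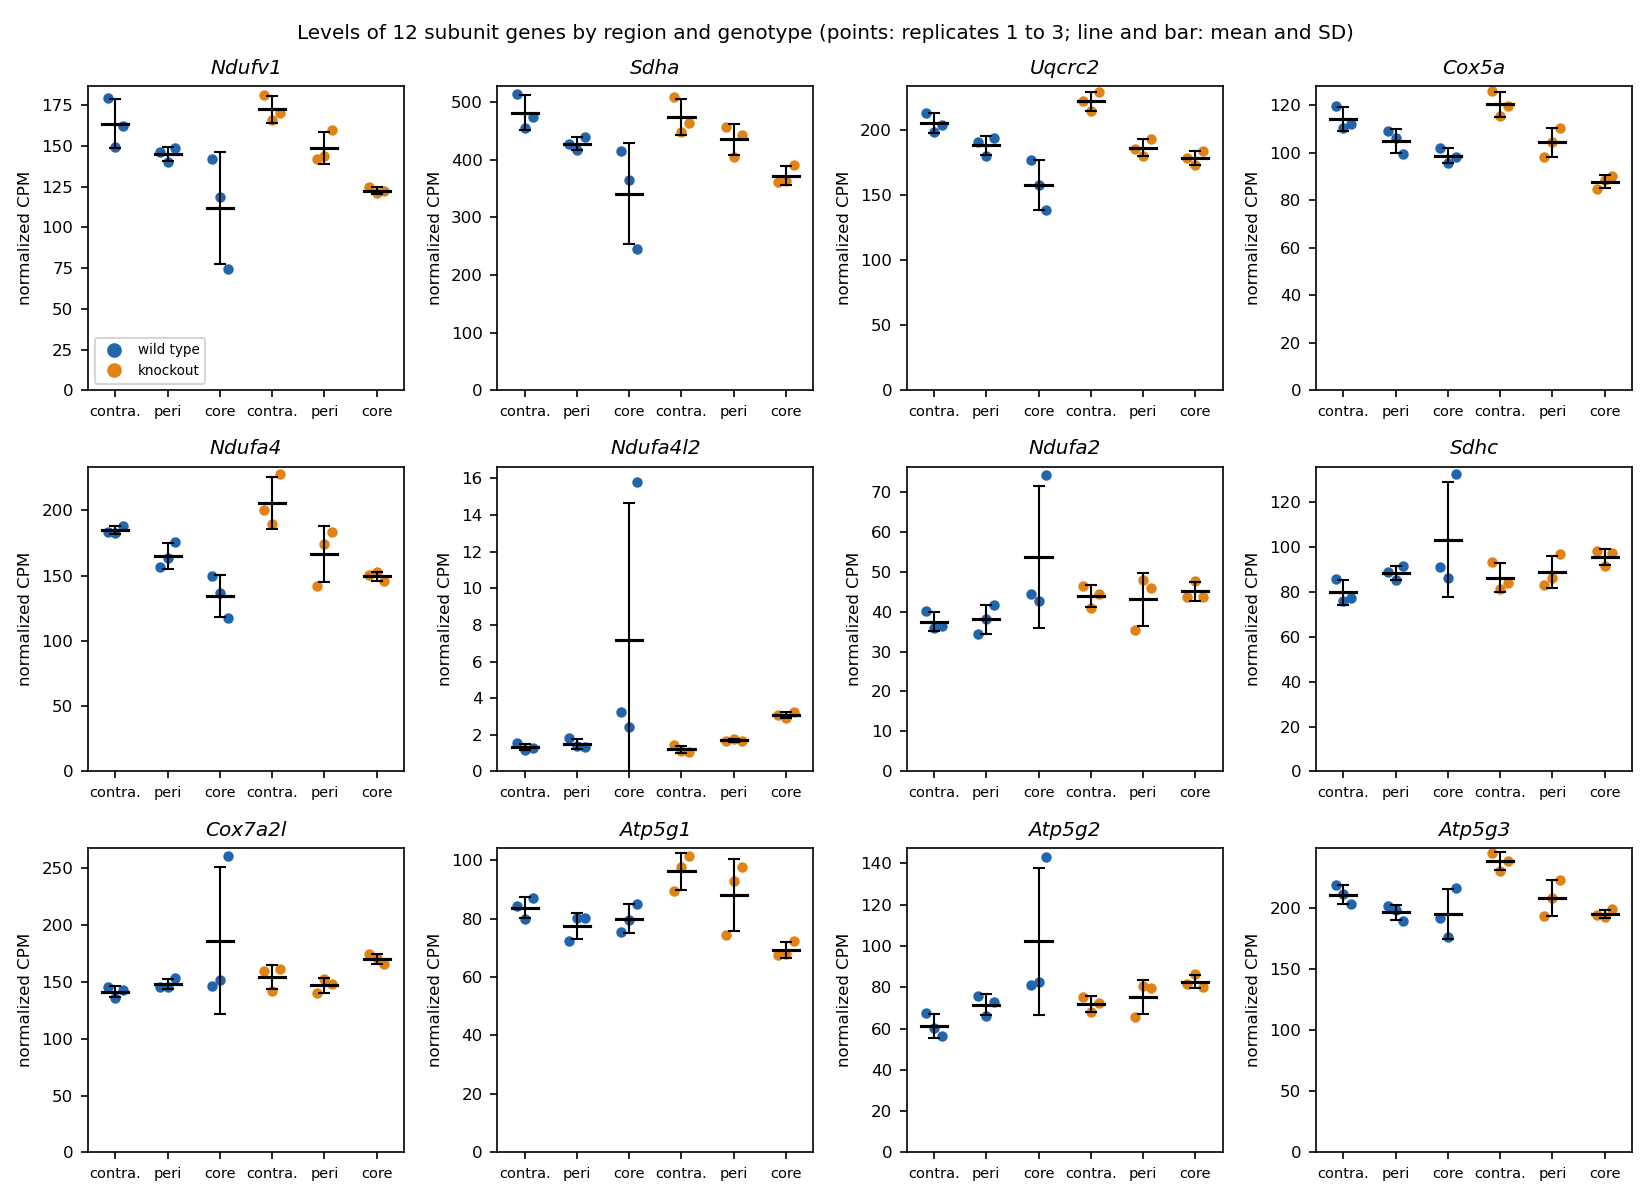
Normalized CPM of 12 members in each library by group, with mean and SD (n = 3) and an axis from 0 in each panel. Uqcrc2 and Cox5a are lower in the core of both genotypes, and Ndufa4l2 is higher, with wild-type core replicate 3 at 15.8 CPM and its SD bar cut at 0.

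Across the 83 members the core responses of both genotypes had a Pearson correlation of 0.878 (Spearman 0.851), or 0.812 without Ndufa4l2, as a description over genes of shared libraries. The genotypes shared no library in these fold changes. Both genotypes called 13 members lower, which is 13 of 20 falls in wild type and 13 of 22 in the knockout, and 69 of 83 had the same sign. The correlation without wild-type core replicate 3 was 0.848 (Spearman 0.710) and 22 members were called lower in both. The matching correlation and shared calls over all genes are not given here, so these values do not set the members apart.

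At the border of the lesion no member passed with all libraries. In wild-type peri-infarct tissue against the contralateral side edgeR called 0 of 83 members at an adjusted p under 0.05, with 1 at an unadjusted p under 0.05. DESeq2 called 2 and limma on TPM 0. Of all genes 3.27% were called higher and 0.00652% lower. The median was -0.05 against 0.02 over all genes, with 59 members below 0. The smallest p among members below 0 belonged to Ndufb10, a membrane-arm subunit, at -0.20 (adjusted p = 0.314), with Sdha at -0.17, Uqcrc2 at -0.13, Cox5a at -0.12 and Atp5a1 at -0.15 in the other complexes. On the other side stood Ndufa1 at 0.11, Sdhc at 0.15, Uqcr11 at 0.13, Cox6b2 at 0.64 (adjusted p = 0.463) and Atp5g2 at 0.22. Without wild-type core replicate 3, 2 members fell, Ndufb10 at -0.24 (adjusted p = 0.0323) and Atp5a1 at -0.19 (0.0485), where 5.34% of all genes fell and 14.2% rose. Pan-neuronal markers summed to 6044 to 6580 CPM at this border, against 7238 to 8683 in the contralateral libraries. Microglia and macrophage markers summed to 2878 to 3921 CPM, against 727 to 1014. The part of these cell types was not tested here either.

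In knockout peri-infarct tissue 74 of 83 members lay below 0, with a median of -0.16 against 0.04 over all genes tested. In 32 members every border library was below every contralateral one and in 2 above, against 12.2% and 25.7% of all genes. By edgeR 0 passed with all libraries, with 22 at an unadjusted p under 0.05. DESeq2 called 14, all lower, and limma on TPM 0. Of all genes 0.0522% were called lower and 4.42% higher by edgeR with all libraries. The shares of all genes by DESeq2, at an unadjusted p or with only the compared libraries are not given here. With only the compared libraries 11 members passed, without wild-type core replicate 1 edgeR called 1, and without wild-type core replicate 3 edgeR called 39 lower and 0 higher, where 7.61% of all genes fell and 13.7% rose. Of those 39, complex I held 20, complex II 2, complex III 2, complex IV 6 and ATP synthase 9. Ndufv2, an iron-sulfur subunit of the N module, measured 124, 111 and 126 CPM in contralateral libraries and 92.8, 92.6 and 105 at the border. The groups did not overlap, and the difference was -0.32 ± 0.09 (adjusted p = 0.0750) or -0.39 ± 0.08 without that library (adjusted p = 0.00326). Sdhb measured 116, 112 and 123 CPM and 85.6, 100.02 and 100.98, also without overlap, at -0.29 ± 0.11 (adjusted p = 0.156, or 0.00581 without it). Uqcrc2, Cox5a and Atp5md were at -0.25, -0.21 and -0.31 (adjusted p = 0.209, 0.173 and 0.127) and passed without that library (0.00209, 0.00528 and 0.0108). Members above 0 with the smallest p were Cox6b2 at 0.58, Ndufa3 at 0.08, Atp5g2 at 0.07 and Sdhc at 0.04. Pan-neuronal markers summed to between 5349 and 5819 CPM at this border, below the contralateral libraries. Microglia and macrophage markers summed to 2226 to 2607 CPM, against 520 to 715, and 11 of 12 rose. Astrocyte markers summed to 9617 to 11332 CPM, against 7553 to 7676, and 1 of 8 rose. The 8 ependymal and choroid plexus markers summed to 2355 CPM in contralateral replicate 2 and to 597 and 2207 in border replicates 1 and 3, and to 280 in the highest of the other 15 libraries. Contralateral replicate 2 was the lowest library of its group for the members' mean centred log2 CPM (0.04) and border replicate 3 the highest of its own (0.09). The members' median was -0.21 without the former and -0.22 without the latter. The part of these cell types in the members' values was not tested.

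**Figure D3:**
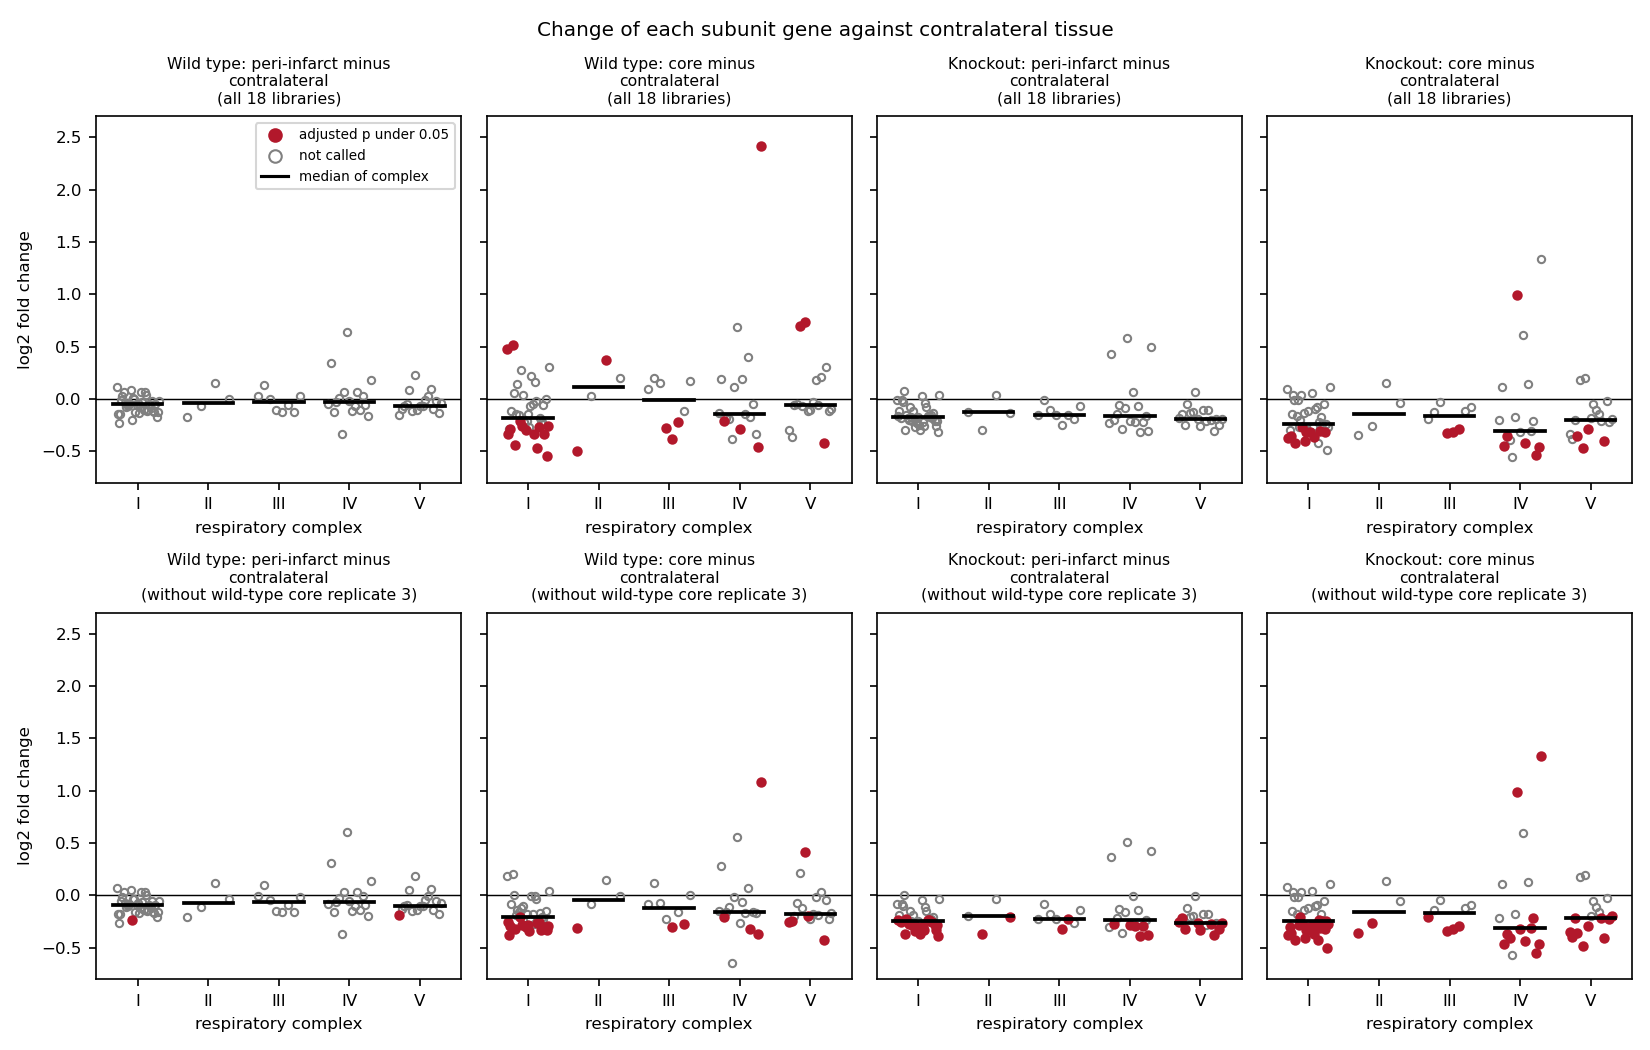
Log2 fold change of each member against contralateral tissue, by complex, for border and core of each genotype with all libraries (top) and without wild-type core replicate 3 (bottom). Filled points passed an adjusted p under 0.05 and bars are medians, and filled points below 0 number 22 (top) and 47 (bottom) in the knockout core and 0 and 39 at the knockout border.

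From wild-type border to core 1 member rose and 1 fell by edgeR, where 12.3% of all genes rose and 0.678% fell. The members' median was -0.06 against -0.04 over all genes. Ndufa4l2 measured 1.81, 1.39 and 1.32 CPM at the border and rose by 2.24 ± 0.53 into the core (adjusted p = 0.0342), or by 0.94 without wild-type core replicate 3 (adjusted p = 0.0310). Ndufa5 fell by 0.40 ± 0.10 (adjusted p = 0.0342), and was at -0.25 without it (0.0698), where Ndufa4l2 was the 1 call left (4.88% of all genes rose and 0.486% fell). The other members with the smallest p of their complex and direction were Atp5md at -0.32 (adjusted p = 0.0539), Atp5g2 at 0.51 (0.0658), Ndufa2 at 0.49 (0.0760), Uqcrc2 at -0.26 (0.0932), Cox6c at -0.27 (0.105), Sdha at -0.33 (0.169), Sdhc at 0.22 (0.242) and Uqcrb at 0.16 (0.362). These calls depended on single libraries. Leaving out peri-infarct replicate 1, 2 or 3 gave 0 calls, and leaving out core replicate 1, 2 or 3 gave 12, 7 and 1. In the knockout, edgeR called 0 members between core and border (0% of all genes), with 7 at an unadjusted p under 0.05, and DESeq2 called 3 and limma on TPM 0. Below 0, the smallest p of each complex was that of Atp5g1 at -0.35 (edgeR adjusted p = 0.132), Cox5a at -0.25 (0.138), Ndufa10 at -0.21 (0.257), Uqcrc1 at -0.17 (0.381) and Sdha at -0.23 (0.457). Above 0 it was that of Ndufa4l2 at 0.84, Atp5e at 0.32, Ndufb1 at 0.21, Sdhc at 0.11 and Uqcrb at 0.08, with edgeR adjusted p from 0.390 to 0.725. With wild-type core replicate 3 left out, 4 rose and 7 fell, where 24.3% of all genes rose and 15.8% fell. The rises were Ndufa4l2 (0.91), Atp5e (0.38), Ndufb1 (0.28) and Cox7a2l (0.27), and the falls Cox8a (-0.31), Atp5g1 (-0.29), Atp5d (-0.24), Ndufv1 (-0.22), Ndufs1 (-0.20), Cox5a (-0.18) and Atp5b (-0.18). These 11 are named because they passed in that fit, a choice made after their values were seen.

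The c subunit of ATP synthase, the proton-carrying ring of the rotor, is encoded by 3 genes whose mature proteins are the same, Atp5g1, Atp5g2 and Atp5g3, and their shares differed between regions. In wild-type contralateral tissue Atp5g3 made up 60.5 ± 0.707% of their summed TPM (SD, n = 3), Atp5g2 20.2 ± 1.15% and Atp5g1 19.3 ± 1.19%. The Atp5g2 share was 21.4, 20.04 and 19.1% in those libraries, 24.9, 22.5 and 24.8% at the border and 26.7, 28.3 and 36.5% in the core. In the knockout it was 21.7, 20.1 and 20.8%, then 23.1, 24.4 and 23.6%, then 27.6, 28.4 and 26.3%. In both genotypes every core library was above every border library, and every border library above every contralateral one. Exact permutation of 3 against 3 libraries cannot give a 2-sided p under 0.1, so the shares carry no test of their own.

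In counts, Atp5g2 passed the test in the wild-type core, and Atp5g1 and Atp5g3 passed in the knockout core. Atp5g2 measured 67.5, 60.0 and 56.2 CPM in wild-type contralateral libraries and 80.9, 82.5 and 143 in the core, and rose by 0.74 ± 0.18 (edgeR adjusted p = 0.00513), or by 0.41 ± 0.10 without replicate 3 (0.00406). In the knockout it went from 75.4, 68.0 and 72.2 to 81.4, 86.2 and 80.1 CPM, without overlap, at 0.20 ± 0.18 (adjusted p = 0.411). Atp5g1 overlapped between wild-type regions (84.4, 79.8 and 87.0 against 75.2, 79.6 and 85.1 CPM). In the knockout it stood at 89.3, 97.5 and 101.5 CPM on the contralateral side and at 67.4, 67.9 and 72.4 in the core, and fell by 0.47 ± 0.10 (adjusted p = 0.00348). Atp5g3 fell in the knockout by 0.29 ± 0.10 (adjusted p = 0.0490). The difference between the genotypes' core responses for Atp5g1 was -0.41 (edgeR's adjusted p = 0.978), so a difference between genotypes was not shown.

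**Figure D4:**
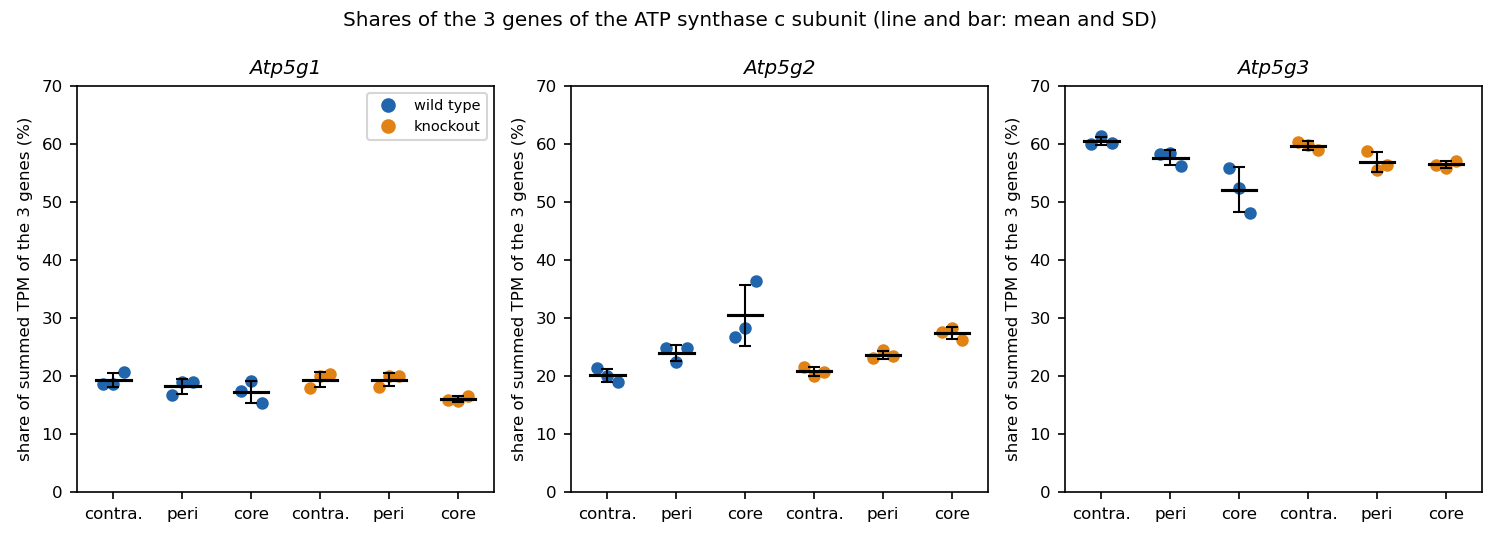
Share of each c-subunit gene in the summed TPM of Atp5g1, Atp5g2 and Atp5g3 (%) in each library, with mean and SD (n = 3). The Atp5g2 share has a mean of 20.2% in wild-type and 20.8% in knockout contralateral tissue and of 30.5% and 27.4% in the core.

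For these 3 genes of the same mature protein, the 250 bases before their annotated starts are shown (RefSeq, GRCm38.p6, minus strand for each, 5′ to 3′), with matches to the searched motifs in capitals.
Atp5g1 (chr11:96075632-96075881): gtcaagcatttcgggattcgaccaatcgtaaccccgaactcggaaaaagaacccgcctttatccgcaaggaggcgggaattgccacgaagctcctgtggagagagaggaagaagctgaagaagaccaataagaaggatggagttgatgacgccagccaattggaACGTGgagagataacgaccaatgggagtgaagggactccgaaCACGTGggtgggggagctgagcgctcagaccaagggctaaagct
Atp5g2 (chr15:102671048-102671297): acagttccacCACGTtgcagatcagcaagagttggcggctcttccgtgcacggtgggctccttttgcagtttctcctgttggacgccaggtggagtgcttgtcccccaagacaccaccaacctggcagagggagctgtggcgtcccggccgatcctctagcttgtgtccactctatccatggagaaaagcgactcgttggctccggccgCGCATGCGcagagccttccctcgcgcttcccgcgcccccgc
Atp5g3 (chr2:73911327-73911576): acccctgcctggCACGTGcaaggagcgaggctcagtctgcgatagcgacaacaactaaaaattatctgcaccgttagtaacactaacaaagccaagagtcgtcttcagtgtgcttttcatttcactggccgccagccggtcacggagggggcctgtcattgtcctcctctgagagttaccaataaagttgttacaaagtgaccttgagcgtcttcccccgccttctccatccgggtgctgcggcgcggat

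The motifs searched on both strands were GCATGCG, the core of the palindromic NRF1 site, CCGGAAG, a core of ETS factors such as GABPA, AANATGGC, a site of YY1, and ACGTG, the core of the hypoxia response element, whose matches on opposite strands overlap in CACGTG. Of the 3 genes, Atp5g2 alone held the NRF1 letters in these 250 bases, on both strands from 40 and 41 bases before its start. ACGTG began 43, 44 and 86 bases before the start of Atp5g1, 240 before Atp5g2, and 237 and 238 before Atp5g3. Over windows from 250 bases before to 50 after a start, 67 of the 83 members matched a RefSeq entry, with 72 windows. NRF1 letters were in 15.3% of these against 3.58% of all 32851 windows, ETS letters in 23.6% against 8.86%, YY1 letters in 23.6% against 6.05%, and ACGTG in 25% against 19.6%. Windows were not matched for base composition, and a match is a description of the letters and not a measured binding site. Whether these letters go with the shares of the 3 genes was not tested.

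Among the other isoform sets, subunits 4, 6a and 6b had 1 dominant form in every group. Cox4i2, the lung and oxygen-responsive form of subunit 4, made up 0.166 to 0.272% of the summed TPM with Cox4i1 as a group mean. Cox6a2, the heart form of subunit 6a, made up 0.965 to 1.27% beside Cox6a1. Cox6b2 made up 0.832 ± 0.286% beside Cox6b1 in wild-type contralateral tissue and 1.25 ± 0.187% in the wild-type core. In the knockout these shares were 0.815 ± 0.106% and 1.84 ± 0.233%. Cox7a1, the heart form of subunit 7a, made up 3.10 ± 0.244% and 4.43 ± 1.02% in those groups. Cox7a2l, a gene related to subunit 7a, had a share of 41.4 ± 0.791% beside Cox7a2 and Cox7a1 in wild-type contralateral tissue and of 49.8 ± 7.38% in the core, and of 41.3 ± 1.58% and 50.0 ± 0.552% in the knockout. Each core library lay above each contralateral one in both genotypes. In counts, Cox7a2 fell in the knockout core by 0.43 ± 0.10 (edgeR adjusted p = 0.00630) and was at -0.15 ± 0.10 in wild type (0.227), while Cox7a2l was at 0.14 ± 0.17 (0.547) and 0.40 ± 0.17 (0.0725). Ndufa4l2 made up 0.223 ± 0.0293% beside Ndufa4 in wild-type contralateral tissue, 4.21% in wild-type core replicate 3 and 0.554 to 0.694% in the other 5 core libraries.

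On the contralateral side most members measured slightly higher in the knockout than in the wild type, and none was called. The members lay at a mean centred log2 CPM of 0.12 ± 0.07 (SD, n = 3) in knockout libraries, which ranged from 0.04 to 0.18, and of 0.01 ± 0.05 in wild-type libraries, which ranged from -0.03 to 0.06. These ranges overlapped. By gene, 75 of 83 were higher in the knockout, with a median of 0.12 against -0.02 over all genes tested, and in 33 of 83 every knockout library was above every wild-type one, against 6.43% of all genes. No member was lower in every knockout library, against 10.5% of all genes. The 33 share the same 6 libraries and are not independent of each other. Some lists of related genes, described below, also differed. Electron carriers outside the name rule summed to 788 to 815 CPM in the knockout and 714 to 760 in wild type. Mitochondrial ribosomal proteins summed to 2181 to 2336 and 2096 to 2167, while regulators of biogenesis were lower (407 to 442 and 443 to 469). Assembly factors, tricarboxylic acid cycle enzymes, import genes and cytosolic ribosomal proteins overlapped. By edgeR 0 members passed (0% of all genes higher, 0.00652% lower), with 4 at an unadjusted p under 0.05 and 0 by DESeq2 or limma on TPM. The smallest p belonged to Ndufs3, a subunit of the Q module, which measured 83.5, 79.4 and 83.1 CPM in wild type and 95.9, 87.2 and 98.1 in the knockout (0.19, unadjusted p = 0.0162, adjusted p = 1.00), followed by Ndufa12 (0.19) and Cox5b (0.22). Pan-neuronal markers summed to 6818 to 7034 CPM in knockout and 7238 to 8683 in wild-type contralateral libraries, and microglia and macrophage markers to 520 to 715 and 727 to 1014. Their part was not tested.

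At the border the median knockout difference was 0.01 and 48 of 83 members were higher. In the core the median rested on wild-type core replicate 3. It was 0.00 with 40 members higher in the knockout, and 0.09 with 66 higher once that library was left out, against 0.02 over all genes. On the TPM scale with all libraries it was 0.26 with 81 higher, against 0.22 over all genes. Without that library 0 members passed in the core by edgeR, where 0.998% of all genes were higher and 2.06% lower, and 9 members had an unadjusted p under 0.05. By edgeR 0 members passed in either region (at the border 0% of all genes higher and 0.00652% lower, in the core 0.00652% each), with 1 and 3 at an unadjusted p under 0.05 and 0 in both by DESeq2 or limma on TPM. At the border Ndufa11, a membrane-arm subunit, had the smallest p, with 33.8, 37.7 and 35.5 CPM in wild type and 35.4, 48.6 and 50.2 in the knockout, where replicate 1 lay among the wild-type values (0.33, edgeR unadjusted p = 0.0202, adjusted p = 1.00). Next came Ndufa12 at 0.15 and Atp5g1 at 0.19. In the core the smallest p was that of Ndufa4l2 (-1.21, edgeR unadjusted p = 0.0303, adjusted p = 0.401), which was at 0.14 without wild-type core replicate 3. Next came Atp5d, the delta subunit of the catalytic head, at -0.21 (adjusted p = 0.404) and Cox5a at -0.17 (0.413), and without that library they were at -0.18 and -0.15. For both, every knockout core library was below every wild-type one.

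Averaged over the 3 regions, 60 of 83 members were higher in the knockout, with a median of 0.03 (74 and 0.07 without wild-type core replicate 3), and edgeR called 0 (0.0913% of all genes higher, 0.137% lower), with 5 at an unadjusted p under 0.05, 1 by DESeq2 and 0 by limma on TPM. The lowest adjusted p values by edgeR were those of Ndufa11 at 0.25 ± 0.07 (adjusted p = 0.193), Ndufa12 at 0.16 (0.195) and Ndufs3 at 0.11 (0.272). Without wild-type core replicate 3, Ndufv3 (0.23 ± 0.05, adjusted p = 0.0105), Ndufa11 (0.29, 0.0202) and Ndufa12 (0.17, 0.0369) were higher, where 2.26% of all genes were higher and 5.2% lower. Ndufv3 measured 40.3, 37.6 and 37.1 CPM in wild-type and 47.5, 39.9 and 43.2 in knockout contralateral libraries. Its ranges overlapped on the contralateral side. Of the 83 members 6 lie on the chromosome of Trem2, namely Ndufb10, Ndufv3, Ndufa7, Ndufa11, Ndufv2 and Cox7a2l, and these include Ndufv3 and Ndufa11 but not Ndufa12. With all libraries Ndufv3 was at 0.14, and Ndufb10, Ndufa7, Ndufv2 and Cox7a2l were at 0.08, 0.06, 0.06 and -0.01. Whether this position goes with the differences was not tested.

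**Figure D5:**
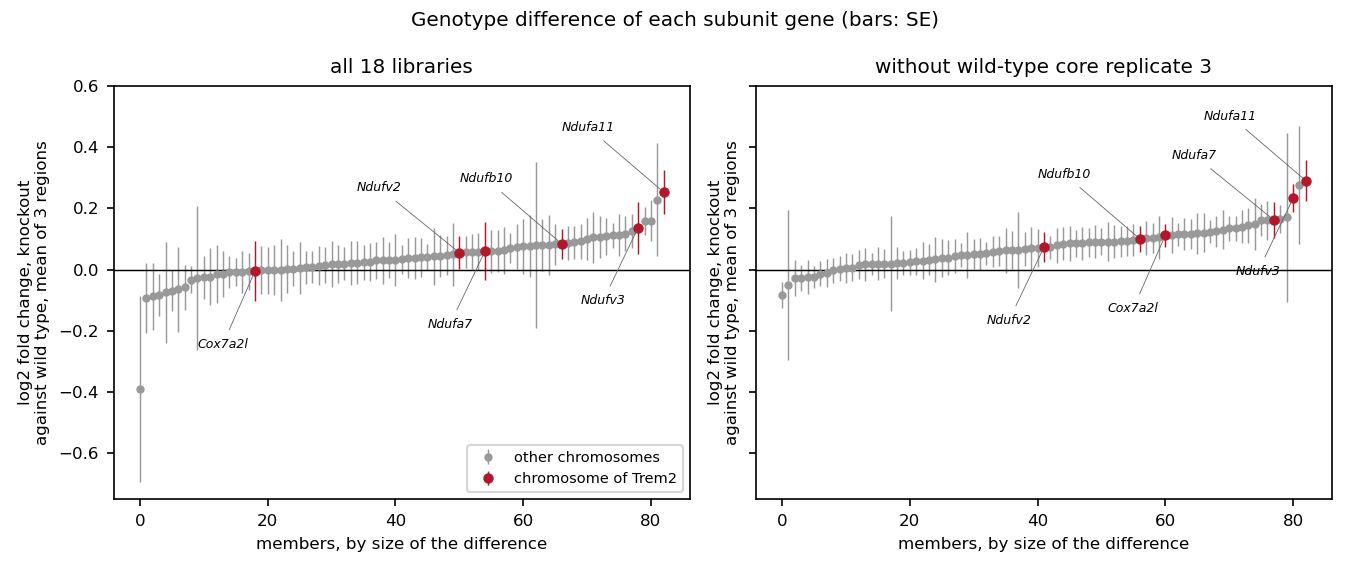
Knockout minus wild-type log2 difference ± SE of each of the 83 members, averaged over the 3 regions and ordered by size, with all libraries (left) and without wild-type core replicate 3 (right). The 6 members on the chromosome of Trem2 are marked, and Ndufa11 has the highest value in both panels (0.25 and 0.29), while the lowest with all libraries is Ndufa4l2 (-0.39).

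The difference between the genotypes' responses was itself tested. For the border response the knockout minus wild-type median was -0.11 against 0.02 over all genes, with 73 of 83 members below 0, and for the core response it was -0.11 against 0.01, with 69 below 0. Without wild-type core replicate 3 these became -0.15 with 76 below 0 at the border and -0.06 with 57 below 0 in the core. On the TPM scale with all libraries the core value turned, to 0.17 with 71 members above 0, against 0.26 over all genes. Both use the contralateral libraries in which the knockout stood higher. By edgeR 0 members passed in either (0% of all genes in both directions), with 0 and 5 at an unadjusted p under 0.05 (6 and 4 without that library) and 0 by DESeq2 and limma on TPM. For the border response the smallest p values were those of Ndufa5 (-0.26), Ndufb2 (-0.27) and Atp5l (-0.29). For the core response they were those of Atp5g1, Atp5d (-0.30) and Atp5l (-0.42), the g subunit.

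Genes that work beside the members were counted from lists of their own, against the 11.5% of all genes that fell and 29.1% that rose in the wild-type core and the 3.31% and 19.7% in the knockout core. Counts without wild-type core replicate 3 stand against 16.6% and 23.6% in wild type and 27.8% and 29.6% in the knockout. Of 16 tricarboxylic acid cycle enzymes, 9 fell and 1 rose in the wild-type core (median -0.35), with Idh3b, a subunit of isocitrate dehydrogenase, at -0.54 ± 0.13 and Suclg2, of succinyl-CoA ligase, at 0.59 ± 0.16 (edgeR adjusted p = 0.00440 and 0.00999). In the knockout core 4 fell and 1 rose (median -0.32), with the fumarase gene Fh1 at -0.40 ± 0.07 and Suclg2 at 0.48 ± 0.16. Their summed CPM was 1830 in wild-type core replicate 3, against 2679 and 2468 in the other wild-type core libraries, and without it 10 fell and 1 rose in wild type (median -0.24) and 14 and 1 in the knockout (median -0.33). Of 46 assembly factors of the complexes 11 fell and 2 rose in wild type and 5 fell and 0 rose in the knockout, or 10 and 2, and 14 and 3, without that library. Atpaf1, which helps assemble the catalytic head of ATP synthase, fell by 0.64 ± 0.12 and 0.46 ± 0.12, and Cox20, an assembly factor of complex IV, rose in wild type by 0.63 ± 0.16. Among 16 electron carriers and subunits outside the name rule, Cycs, which encodes cytochrome c, fell in wild type (-0.38 ± 0.10), Ndufab1, the acyl carrier of complex I, fell in the knockout (-0.44 ± 0.10) and Etfdh, which feeds electrons from fatty acid oxidation, rose in both (0.58 ± 0.13 and 0.38 ± 0.13). That list had 2 falls and 3 rises in wild type and 4 falls and 1 rise in the knockout, or 3 and 3, and 7 and 3, without that library.

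Among 13 regulators of mitochondrial biogenesis, 4 fell and 3 rose in the wild-type core and 1 fell and 2 rose in the knockout core. Without wild-type core replicate 3 these were 4 and 2, and 5 and 3. Gabpa, an ETS factor, rose by 0.75 ± 0.14 and 0.81 ± 0.14, and the nuclear receptor Esrra fell by 0.37 ± 0.09 and 0.34 ± 0.09 (edgeR adjusted p from 0.000728 to 0.0143). Of 18 import and membrane genes 6 fell and 2 rose in wild type and 3 fell and 0 rose in the knockout, or 5 and 2, and 7 and 2, without it. Tomm20, a receptor of the import machinery, fell in wild type by 0.43 ± 0.13 and the prohibitin gene Phb2 rose by 0.63 ± 0.18 (0.25 ± 0.08 without it), and Tomm40, the import channel, fell in the knockout by 0.34 ± 0.07. Of 78 mitochondrial ribosomal proteins 7 fell and 10 rose in wild type (median 0.09), with Mrpl35 at -0.41 ± 0.07 and Mrpl54 at 0.85 ± 0.22, and 6 fell and 1 rose in the knockout (median -0.08), with Mrpl35 at -0.35 ± 0.07 and Mrps6 at 0.59 ± 0.13. The list summed to 2672 CPM in wild-type core replicate 3, against 2093 and 2042 in the other wild-type core libraries and 2096 to 2167 on the contralateral side. Without that library 7 fell and 7 rose in wild type, the median was -0.05 and Mrpl54 stood at 0.43 ± 0.12, and in the knockout 15 fell and 4 rose. In that fit 27.8% of all genes fell and 29.6% rose in the knockout core. Cytosolic ribosomal proteins differed from the members in direction, with 73 of 78 higher in the wild-type core and a median of 1.06, and 2 of 78 higher in the knockout core and a median of 0.54. These were 63 and 71 of 78 without wild-type core replicate 3, with medians of 0.42 and 0.53. Atpif1, the inhibitor protein of ATP synthase, was not called in the core of either genotype (-0.08 in wild type, and -0.32 ± 0.12 with an adjusted p = 0.0669 in the knockout).

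The members' fold changes in the core, and at the wild-type border, also varied with gene length. Lengths were known for 81 members with a coding length in the annotation (156 to 2181 bases, median 408). In the core the Spearman correlation of the fold change with length was -0.375 in wild type and -0.244 in the knockout. Without wild-type core replicate 3 these were -0.297 and -0.245. These are descriptions across genes that share libraries. The 41 shorter members had a median of -0.05 in wild type and -0.17 in the knockout, and the 40 longer ones -0.19 and -0.27. Without that library the wild-type medians were -0.14 and -0.21. At the border the correlation with length was -0.434 in wild type and -0.119 in the knockout with all libraries. The relation over all genes is not given here. Whether length, RNA quality or the members' roles go with this was not tested.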

How the data were processed

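For 18 libraries the authors deposited expected counts (estimated counts per gene, which can hold fractions) and TPM (transcript abundance scaled to length and to a fixed total). Of all genes 3678 (19.4%) held a fraction in some library, so the expected counts were rounded for testing, where the design had assumed whole counts. Tools named in the submitters' processing notes are Subread, Bowtie2 and HISAT2 2.0.4, with genome build GRCm39 (mm39). Which tool estimated the counts, and any use of strand, are not given. The library kit, per the labels' protocols, was MGIEasy stLFR.

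edgeR 4.0.16 (R 4.3.3) was run on rounded counts with TMM, filterByExpr, a robust quasi-likelihood fit of 6 group means and 12 residual degrees of freedom. Adjusted p-values are Benjamini-Hochberg over 15329 genes, with calls under 0.05. An SE is the size of the log2 fold change over the root of F. CPM is scaled by TMM. The deposited TPM served for levels per length, for isoform shares, and for an alternative test with limma 3.58.1 on log2(TPM + 1). On that scale a fold change of a low gene is understated. Other alternatives were DESeq2 1.42.0, RLE size factors, no filter on low counts, only the compared libraries, the replicate number as a block, and leaving out each library.

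Members and lists were chosen with earlier results of these data known. Named members are, in each comparison of regions and each complex, the smallest p in each direction, and in each genotype comparison the 3 smallest p. All Sdh genes, isoform sets, Atpif1 and the 3 highest and lowest by TPM are named too. Of the lists of mitochondrial genes, the called gene with the smallest p in each direction in the core is named. Ndufv1, Ndufs1 and other called members beyond this rule were chosen after their values were seen. Replicate numbers of wild-type contralateral and peri-infarct libraries deviated together (correlations of 0.398, 0.436 and 0.386), a pairing seen in the values and stated by no label, and the block left 0 members called there. Promoters came from RefSeq (GRCm38.p6) and coding lengths from a GENCODE annotation of an older build than that of the counts, so no position was carried over.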

Additional observations from a re-analysis of the deposited data

How the results depend on the processing

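The number of members called depended on the fit in 7 of 12 comparisons, and the other 5 (knockout against wild type in each region and the differences of the border and core responses) had 0 under each alternative run. In the wild-type core the 26 calls became 69 by limma on log2(TPM + 1), 17 with the replicate block, 0 with only the compared libraries, and 10 to 32 with 1 library left out. In the knockout core the 23 became 38 by DESeq2, 45 with only the compared libraries and 10 to 49 with 1 library left out. Between wild-type core and border the 2 became 8 by DESeq2, 6 by limma on TPM, 0 with only the compared libraries or with the replicate block, and 0 to 12 with 1 library left out. The same order of settings gave, from 0, 14, 11 and 0 to 39 at the knockout border (DESeq2, only the compared libraries, 1 library left out) and 3, 7 and 0 to 11 between knockout core and border. DESeq2 gave 2 at the wild-type border and 1 for the mean genotype difference, where leaving out 1 library gave 0 to 2 and 0 to 3. Apart from the fit without wild-type core replicate 3, the shares of all genes called in these settings are not given here.

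On the TPM scale 22 of 83 members changed sign in the wild-type core, 57 in the difference of the core responses and 41 in the core genotype difference. Those in the wild-type core included Ndufa1 at -0.013, Sdhb at -0.39, Sdhc at -0.058 and Sdhd at -0.23. On that scale the median of all genes was -0.34 there and that of the members -0.55. The causes were not tested. The replicate block changed no other count by over 1.5 times, and same-numbered libraries of the other groups compared did not all correlate above 0.1. The mean genotype difference uses all libraries, so a fit of only the compared libraries was not run for it. Isoforms with few counts, such as Cox4i2, Cox6b2, Cox7a1 and Ndufa4l2, are limited by depth.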
